A study of Rattus norvegicus with 18 samples.

Results

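Toll-like receptors, their co-receptor Cd14 and the adaptor Myd88 were followed in the liver of each rat of the BarNa model of non-alcoholic steatohepatitis (NASH). The 10 genes were chosen by name (Tlr2, Tlr3, Tlr4, Tlr5, Tlr7, Tlr8, Tlr9, Cd14, Ly96 and Myd88), and their rows were found by symbol among the 32623 genes of the count tables. Of these, 9 were found, Ly96 is not analysed here, and 7 were among the 12904 genes with enough counts to be tested. The groups were 6 control, 6 NASH and 6 NASH-CH male Wistar rats, NASH-CH standing for NASH with cirrhosis. Control rats received standard chow and plain water for 12 weeks. NASH rats inhaled carbon tetrachloride (CCl4, a hepatotoxin) with phenobarbital in the drinking water for 6 weeks and then ate the high-fat and high-cholesterol diet for 4 weeks. NASH-CH rats received CCl4 and phenobarbital for 8 weeks, followed by 16 weeks of the same agents together with the diet. The labels describe the treatments as combined over 10 and 24 weeks. Each group was therefore sampled at another time after its start, and no control matched the 10 or the 24 weeks. Each library came from 1 rat, and ages were not given in the sources used here.

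Toll-like receptors recognize molecules of microbes and of damaged cells. Tlr2, Tlr4 and Tlr5 sit at the cell surface, where they sense lipoproteins, lipopolysaccharide (LPS) and flagellin, whereas Tlr3, Tlr7, Tlr8 and Tlr9 sense nucleic acids from within endosomes. Cd14 passes LPS on to Tlr4, and Myd88 links all of these receptors except Tlr3 to the kinases that release NF-kB, the factor that switches on cytokine genes. In liver the receptors are known mostly from Kupffer cells, the resident macrophages, but also from hepatocytes, endothelial and stellate cells, which meet gut-derived products in the portal blood.

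Levels are given as CPM (counts of a gene per 1000000 counts of tested genes, scaled by the TMM method), which are not corrected for gene length, so that levels were compared between rats but not between genes. Libraries held 19498534 to 27174015 counts in control rats, 20827770 to 29491947 in NASH rats and 44680344 to 60117822 in NASH-CH rats, so that depth and the NASH-CH group cannot be told apart. Alb, the gene of albumin, averaged 105874 CPM for control, 74893 for NASH and 71037 for NASH-CH livers, a hepatocyte transcript at a high level in every group. As whole tissue was sequenced, fewer cells of a type and less RNA per cell cannot be told apart. Log2 fold changes, standard errors (SE) and p-values come from limma-voom, with Benjamini-Hochberg adjustment over all 12904 genes and a threshold of 0.05, and the 95% intervals are for 1 comparison at a time. NASH and NASH-CH were compared with the same 6 control rats, so the comparisons are not independent.

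None of the tested members passed the test across genes in NASH or in NASH-CH livers. In NASH against control, 0 of 7 tested members passed the threshold, where 3.12% of all tested genes did, and 0 had an unadjusted p under 0.05, where 2776 of 12904 genes did. In NASH-CH against control, 0 of 7 passed by limma-voom, where 17.0% of all tested genes did, and 1, Tlr8, had an unadjusted p under 0.05 (as did 4085 of 12904 genes) and passed in DESeq2 (as did 2841 of 12904 genes). Between NASH-CH and NASH, 0 of 7 passed, against 4.20% of all tested genes (NASH-CH higher in 1.81%, lower in 2.39%), and Tlr8 was again the 1 member with an unadjusted p under 0.05, beside 2254 of 12904 genes. The groups overlapped for all 9 members in each comparison. Among all tested genes, the groups did not overlap for 1.77% (higher) and 1.39% (lower) in NASH, and for 3.64% and 3.46% in NASH-CH against control. Between the 2 models they did not overlap for 1.36% (higher in NASH-CH) and 2.10% (lower). The median log2 fold change of the 7 tested members was -0.034 in NASH and 0.080 in NASH-CH against control, beside 0.0072 and 0.013 over all tested genes. The panels of CPM by rat and the intervals of the fold changes show these comparisons.

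**Figure D1:**
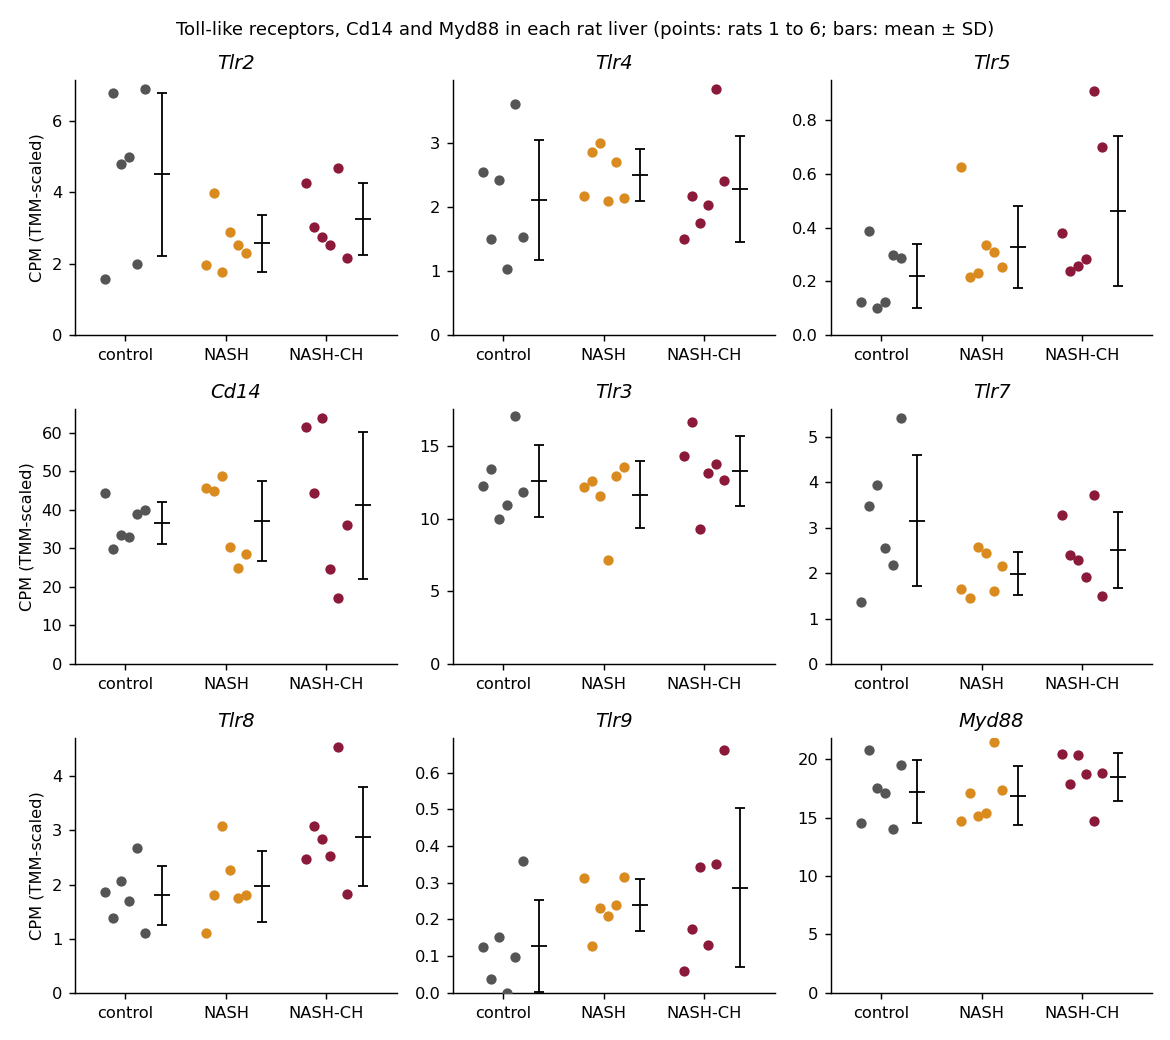
CPM of each member (vertical axis, linear from 0) in each of the 6 control, 6 NASH and 6 NASH-CH rats, with 1 point per rat and bars for the mean ± SD. The groups overlap in all 9 panels, and the controls of Tlr2 spread from 1.56 to 6.88 CPM.

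**Figure D2:**
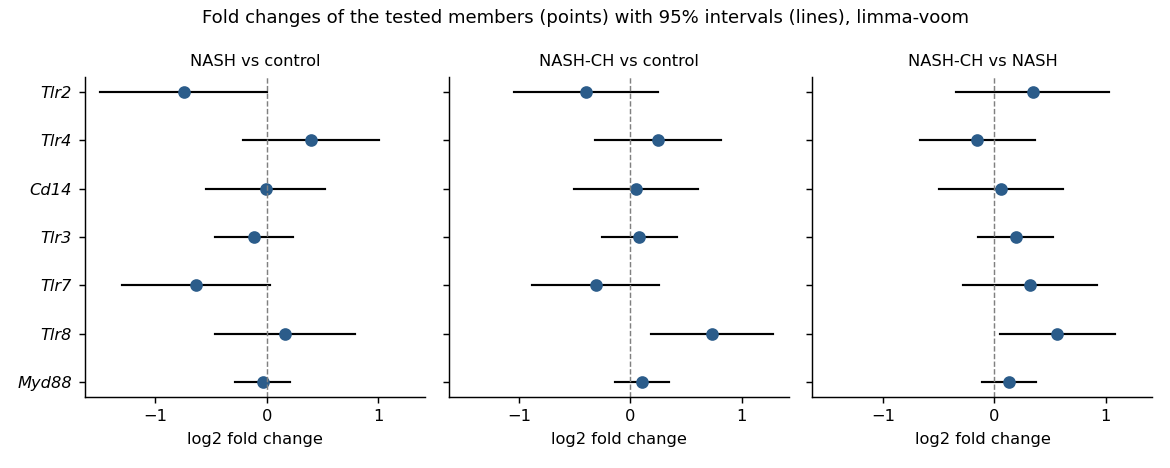
Log2 fold changes (points) of the 7 tested members in the 3 comparisons, with 95% intervals from limma-voom (lines) and a dashed line at 0. The intervals of Tlr8 lie above 0 in NASH-CH against control (0.18 to 1.28) and against NASH (0.051 to 1.08), before adjustment for the number of genes.

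Among the surface receptors, Tlr2 (ENSRNOG00000009822), the receptor of bacterial lipoproteins, varied widely among the control rats. The lowest, median and highest levels were 1.56, 4.90 and 6.88 CPM in control, 1.77, 2.42 and 3.98 CPM in NASH, and 2.17, 2.89 and 4.69 CPM in NASH-CH rats. The controls were split, with rats 1 and 5 at 1.56 and 1.98 CPM and the other 4 between 4.79 and 6.88 CPM, a 4.42-fold range within the group. Every NASH rat lay under the control mean of 4.50 ± 2.29 CPM (SD, n = 6), but the 2 low control rats lay within or under the NASH range. The log2 fold change was -0.75 in NASH (SE 0.36, 95% interval -1.49 to 0.0022, limma-voom adjusted p = 0.233) and -0.40 in NASH-CH (SE 0.31, interval -1.05 to 0.25, adjusted p = 0.392). NASH-CH rats did not differ from NASH rats beyond their spread either (0.34, SE 0.33, interval -0.34 to 1.03, adjusted p = 0.639).

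The spread of Tlr2 went with that of cytokine and adhesion genes. Over the 18 rats, the genes whose log2 CPM deviations from the group means were most like those of Tlr2 were Il1b (Pearson r = 0.93), Icam1 (0.92) and Cxcl2 (0.92). These encode the inflammatory cytokine interleukin 1 beta, an adhesion molecule that holds leukocytes to endothelium, and a chemokine that attracts neutrophils. The values describe these 18 livers only: the genes were picked for the likeness, and each pair of points shares a library and its scaling factor. Il1b was at 3.18 CPM in control rat 1 and 3.57 CPM in control rat 5, and between 38.6 and 84.1 CPM in the other 4 control rats. Cxcl2 was at 1.50 and 0.793 CPM in the same 2 rats and between 28.0 and 42.6 CPM in the other 4. Control rat 6 ranked highest of 18 in Tlr2, Il1b, Cxcl2 and Icam1. Against control, Il1b differed by -0.67 (SE 0.69, adjusted p = 0.619) for NASH and -0.58 (SE 0.68, adjusted p = 0.590) for NASH-CH rats, within the spread of the controls. The plot of Tlr2 against these genes shows the 2 low control rats at the lower left.

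**Figure D3:**
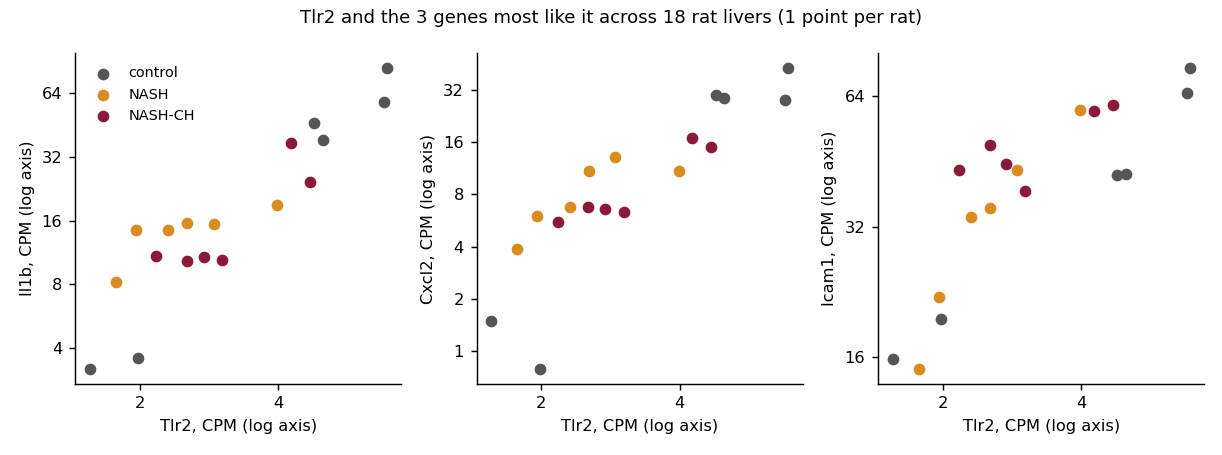
CPM of Il1b, Cxcl2 and Icam1 (vertical axes, log scale) against CPM of Tlr2 (horizontal axis, log scale) in 18 rats, colored by group. Control rats stand at both ends for Il1b and Cxcl2, with control rats 1 and 5 at 1.56 and 1.98 CPM of Tlr2.

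Tlr2 was also the member with an NF-kB consensus in its promoter window, the 250 bases before the annotated start in RefSeq's GRCr8 assembly (the counts were made on Rnor_6.0). The motif was searched on both strands in the 9 members found and was present in 1 of them, and in 3.52% of all 27457 such windows. Of the 3 genes most like Tlr2, Cxcl2 had a match, and Il1b and Icam1 had none within these letters. The windows of Tlr2 and Cxcl2 are printed because they hold the motif, 5′ to 3′ along the gene's strand, with the matching bases in capitals.
Tlr2 (chr2:171504558-171504807, minus strand): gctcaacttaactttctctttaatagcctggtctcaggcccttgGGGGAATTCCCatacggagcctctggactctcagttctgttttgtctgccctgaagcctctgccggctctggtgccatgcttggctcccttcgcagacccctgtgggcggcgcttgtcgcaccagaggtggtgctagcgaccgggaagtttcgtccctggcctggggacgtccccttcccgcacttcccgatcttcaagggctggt
Cxcl2 (chr14:17467256-17467505, minus strand): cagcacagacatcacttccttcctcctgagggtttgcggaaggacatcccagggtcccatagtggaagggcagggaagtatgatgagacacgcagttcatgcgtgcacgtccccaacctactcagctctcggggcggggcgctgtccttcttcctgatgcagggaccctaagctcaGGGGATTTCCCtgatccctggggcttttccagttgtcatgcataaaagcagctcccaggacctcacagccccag
The capitals began 206 bases before the start in Tlr2 and 74 bases before it in Cxcl2, and in both genes 2 overlapping matches, 1 base apart, made up the run. A match is a description of the sequence, and binding was not measured.

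Tlr4 (ENSRNOG00000010522), the LPS receptor, did not pass in any comparison. Levels (lowest, median and highest) were 1.03, 1.98 and 3.62 CPM in control, 2.10, 2.44 and 3.01 CPM in NASH, and 1.50, 2.10 and 3.86 CPM in NASH-CH rats. NASH rats lay close together, while control rat 5 and NASH-CH rat 5 were high. The mean was 2.11 ± 0.941 CPM for control, 2.50 ± 0.406 for NASH and 2.29 ± 0.832 for NASH-CH rats (SD, n = 6 each). The log2 fold change was 0.40 in NASH (SE 0.29, interval -0.21 to 1.01, adjusted p = 0.454) and 0.25 in NASH-CH (SE 0.27, interval -0.32 to 0.82, adjusted p = 0.555). Without NASH-CH rat 5 the latter was 0.042. The depth behind Tlr4 was small, from 25 to 297 counts per rat, and was similar for Tlr2, Tlr7 and Tlr8.

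Cd14 (ENSRNOG00000017819), which hands LPS to Tlr4, had group means that lay closer together than the rats within the NASH-CH group. It was 36.5 ± 5.39 CPM for control, 37.2 ± 10.4 for NASH and 41.2 ± 19.1 for NASH-CH rats (SD, n = 6 each), a coefficient of variation of 14.8%, 27.9% and 46.3%. Levels were 29.8, 36.2 and 44.2 CPM (lowest, median and highest) in control, 24.9, 37.6 and 48.7 CPM in NASH, and 17.1, 40.1 and 63.9 CPM in NASH-CH rats. In both models the values thus reached beyond the controls on both sides. In NASH 3 rats lay above and 2 below every control rat, and in NASH-CH 2 above and 2 below. The difference in spread was not tested. The log2 fold change was -0.0089 in NASH (SE 0.26, interval -0.55 to 0.53, adjusted p = 0.989) and 0.048 in NASH-CH (SE 0.26, interval -0.51 to 0.60, adjusted p = 0.916). In NASH its sign turned with the test, the scaling or the rat left out, and in NASH-CH only with the rat left out.

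Tlr5 (ENSRNOG00000022067), the flagellin receptor, was close to the limit of these libraries and was not tested with the other genes. It held 2 to 10 counts per control rat, 5 to 14 per NASH rat and 11 to 70 per NASH-CH rat. Its lowest, median and highest levels were 0.101, 0.206 and 0.386 CPM in control, 0.214, 0.280 and 0.624 CPM in NASH, and 0.239, 0.332 and 0.909 CPM in NASH-CH rats. The groups overlapped, with the highest value in NASH-CH rat 5. Exact permutation tests of log2 CPM (two-sided, prior count 2) gave p = 0.136 for NASH and p = 0.0649 for NASH-CH against control, where the smallest p they allow is 0.00216.

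Among the endosomal receptors, Tlr8 (ENSRNOG00000045992), known in humans as a sensor of single-stranded RNA, came closest to the threshold. The lowest, median and highest levels were 1.11, 1.78 and 2.68 CPM in control, 1.11, 1.80 and 3.09 CPM in NASH, and 1.82, 2.69 and 4.55 CPM in NASH-CH rats. All 6 NASH-CH rats lay above the control mean of 1.80 ± 0.548 CPM (SD, n = 6), and 3 lay above every control rat. The NASH-CH mean was 2.89 ± 0.918 CPM. Tlr8 held few counts, with 30 to 54 per control rat, 25 to 80 per NASH rat and 99 to 350 per NASH-CH rat. The log2 fold change in NASH-CH against control was 0.73 (SE 0.26, 1.66-fold, interval 0.18 to 1.28, limma-voom adjusted p = 0.0627), which did not pass. It passed in DESeq2 (0.69, adjusted p = 0.0400), when scaled by library size only (0.95, adjusted p = 0.0189), without a filter on low counts (0.73, adjusted p = 0.0431) and without NASH-CH rat 6 (0.86, adjusted p = 0.0284). Over all genes, those fits called 2841 of 12904, 3270 of 12904, 5495 of 20887 and 1731 of 12966, beside 2192 of 12904 in the main fit. Under 25 of the other alternatives, Tlr8 kept its side of the threshold. Without NASH-CH rat 5, the highest of all 18, the log2 fold change was 0.56 with an adjusted p of 0.102. Against NASH the difference was 0.57 (SE 0.25, interval 0.051 to 1.08, adjusted p = 0.229), and NASH against control gave 0.16 (SE 0.30, interval -0.47 to 0.80, adjusted p = 0.795).

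Tlr7 (ENSRNOG00000004249), a sensor of single-stranded RNA, had its lowest mean in NASH rats. It ran over 1.37, 3.02 and 5.41 CPM (lowest, median and highest) in control, 1.46, 1.90 and 2.58 CPM in NASH, and 1.49, 2.34 and 3.71 CPM in NASH-CH rats. As for Tlr2, every NASH rat lay under the control mean, and control rat 1 was the lowest and control rat 6 the highest of all 18. Means were 3.16 ± 1.44 CPM for control, 1.98 ± 0.473 for NASH and 2.52 ± 0.836 for NASH-CH rats (SD, n = 6 each). The log2 fold change was -0.63 in NASH (SE 0.32, interval -1.30 to 0.032, adjusted p = 0.254) and -0.31 in NASH-CH (SE 0.27, interval -0.88 to 0.26, adjusted p = 0.456).

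Tlr3 (ENSRNOG00000021726), the sensor of double-stranded RNA, and the adaptor Myd88 (ENSRNOG00000013634) had the smallest standard errors of the tested members. Tlr3 ran over 9.99, 12.1 and 17.1 CPM (lowest, median and highest) in control, 7.17, 12.4 and 13.6 CPM in NASH, and 9.30, 13.5 and 16.7 CPM in NASH-CH rats. NASH rat 4, at 7.17 CPM, stood below the other 17 rats. The log2 fold change of Tlr3 was -0.11 in NASH (SE 0.17, interval -0.46 to 0.24, adjusted p = 0.742) and 0.080 in NASH-CH (SE 0.16, interval -0.26 to 0.42, adjusted p = 0.769). Myd88 ran over 14.0, 17.3 and 20.7 CPM in control, 14.7, 16.2 and 21.5 CPM in NASH, and 14.7, 18.7 and 20.4 CPM in NASH-CH rats. The groups of Myd88 covered nearly the same range. Its log2 fold change was -0.034 in NASH (SE 0.12, interval -0.28 to 0.21, adjusted p = 0.901) and 0.10 in NASH-CH (SE 0.12, interval -0.14 to 0.34, adjusted p = 0.584).

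Tlr9 (ENSRNOG00000048161), the sensor of unmethylated CpG DNA, had 0 to 10 counts per control rat, 3 to 10 per NASH rat and 3 to 36 per NASH-CH rat, too few for the test across genes. Its lowest, median and highest levels were 0, 0.112 and 0.359 CPM in control, 0.129, 0.236 and 0.316 CPM in NASH, and 0.0600, 0.259 and 0.663 CPM in NASH-CH rats. The groups overlapped, and 1 control rat had no count. Exact permutation tests of log2 CPM (two-sided, prior count 2) gave p = 0.0563 for NASH and p = 0.128 for NASH-CH against control.

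Within the groups the members did not move as one. Deviations from the group means over 18 rats went together for Tlr2 and Tlr7 (Pearson r = 0.70) and for Tlr4 and Tlr8 (0.58), and opposite ways for Tlr4 and Myd88 (-0.57) and for Tlr8 and Myd88 (-0.53). For Tlr2 and Tlr4, both surface receptors, r was -0.41. These are descriptions of 18 rats, whose points share library and scaling. NASH-CH rat 5 stood apart, as the map of deviations shows. It was the highest of all 18 rats in Tlr4, Tlr5 and Tlr8 and the highest NASH-CH rat in Tlr2 and Tlr7. The same rat had the lowest Cd14 of all 18, at 17.1 CPM, and the lowest Myd88 of its group, at 14.7 CPM. Its summed pan-leukocyte markers (66.6 CPM over 5 genes) and monocyte and neutrophil markers (93.6 CPM over 6 genes, of which Lyz2 made up 88.2) were the highest of all 18 rats. Its summed cholangiocyte (33.4 CPM over 4 genes), dendritic cell (12.3 CPM over 5) and T cell markers (2.34 CPM over 4) were also the highest. Its summed hepatocyte markers (47122 CPM over 6 genes, of which Alb made up 41374) and sinusoidal endothelial markers (161 CPM over 5) were the lowest. Its Apoa1, a hepatocyte marker at 1264 CPM, was the highest of the NASH-CH rats. Its macrophage and Kupffer cell markers (267 CPM over 11 genes) ranked 15 of 18, its stellate cell markers 13 and its B cell markers 8. The genes within these lists did not all go the same way. Among NASH-CH rats, this rat had the highest Cd68 (14.8 CPM), Adgre1 (16.4) and Csf1r (34.2) but the lowest Cd163 (23.8). Of the stellate cell markers, its Des (4.39 CPM), Col1a1 (34.4) and Pdgfrb (27.2) were the highest of that group. Its Lrat (14.4 CPM) and Reln (20.9) were the lowest. The part of these cell types in the values of that rat was not tested, and without it 0 of 7 members passed in any comparison.

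**Figure D4:**
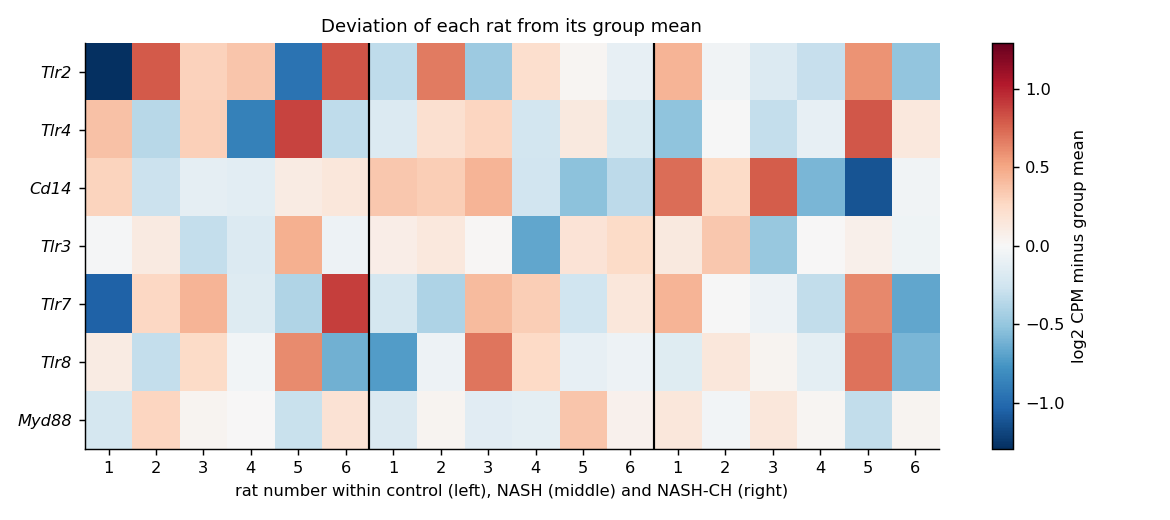
Deviation of log2 CPM from the group mean for the 7 tested members (rows) in the 18 rats (columns), red above and blue below the mean, with black lines between control, NASH and NASH-CH. NASH-CH rat 5 is red for Tlr2, Tlr4, Tlr7 and Tlr8 and blue for Cd14 and Myd88, and control rat 1 is blue for Tlr2 and Tlr7.

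The genes most like the other members by the same measure were, for Tlr4, Calhm2, Zfp709 and Abi3 (r from 0.84 to 0.85). For Tlr7 they were Sla, Jak2 and Tfec (0.86 to 0.88), and for Tlr8 Hccs, Rgs18 and Lilra5 (0.84 to 0.86). With the group means left in, r with Tlr8 was 0.15 for Hccs, 0.64 for Rgs18 and 0.43 for Lilra5. Hccs was lower in NASH-CH against control (-0.32, limma-voom adjusted p = 0.0367), the direction opposite to that of Tlr8. Tlr3 was most like Setmar, Tamm41 and Lrrc20 (0.80 to 0.87), Cd14 like Cyb5a, Cds2 and Gstt2 (0.82 to 0.84), and Myd88 like Dll1, Mgat1 and Mertk (0.84 to 0.85). Of these genes, Sla, Tfec, Rgs18 and Lilra5 are known from blood cells, whereas Cyb5a and Gstt2 encode a cytochrome and a glutathione transferase abundant in hepatocytes. The remaining genes, among them Mertk, Abi3 and Hccs, were not sorted by cell type, so no cell type is assigned to a member. Each was picked as the most alike of 12904 genes, so r is given as a description.

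Most of the macrophage markers tested were lower in NASH-CH livers. Of 10 tested macrophage and Kupffer cell markers, 7 fell in NASH-CH against control and 0 rose, where 8.60% of all tested genes fell. They were Marco (a scavenger receptor, -2.15, SE 0.48, adjusted p = 0.00568), Cd5l (-0.93), Clec4f (a lectin of Kupffer cells, -0.58), Vsig4 (-0.56), Cd163 (-0.48), Csf1r (-0.46) and C1qb (-0.42). Cd68, at 11.6 CPM on average in control and 12.7 CPM in NASH-CH rats, was the 1 marker with a log2 fold change above 0 (0.15, SE 0.14, adjusted p = 0.490) and did not pass. In NASH 1 of 10, Marco, fell (-2.78, SE 0.58, adjusted p = 0.0168), where 1.54% of all tested genes did. The summed level of the 11 listed markers ran from 334 to 604 CPM for control, 253 to 364 for NASH and 213 to 323 for NASH-CH rats. In contrast, Lyz2, a lysozyme gene of monocytes, neutrophils and macrophages, rose in NASH-CH (1.58, SE 0.27, adjusted p = 0.000659), as did Cd53 (0.71, SE 0.23, adjusted p = 0.0408), 1 of 5 pan-leukocyte markers, where 8.38% of all tested genes rose. Deviations from the group means over the 18 rats were also set beside those of whole marker lists, some of which are given here as a description. For Tlr8, Pearson r ran from 0.20 to 0.67 over 10 macrophage markers, from 0.53 to 0.72 over 5 pan-leukocyte markers and from -0.48 to 0.021 over 6 hepatocyte markers. For Tlr4 it ran from -0.096 to 0.44, from 0.18 to 0.71 and from -0.66 to 0.31 over the same lists, and for Tlr7 from -0.10 to 0.54, from 0.38 to 0.66 and from -0.47 to 0.45. Tlr2 had values of both signs for macrophage (-0.42 to 0.31) and hepatocyte markers (-0.46 to 0.63), and so had Cd14 (-0.21 to 0.43 and -0.31 to 0.66). Over the pan-leukocyte markers, r ran from -0.47 to -0.081 for Cd14 and from -0.43 to -0.27 for Myd88. Over macrophage markers r was -0.64 to 0.0059 for Myd88 and -0.030 to 0.52 for Tlr3. Of 7 listed monocyte and neutrophil markers, 2 were tested, Lyz2 and S100a9. For these, r was 0.67 to 0.73 for Tlr4, 0.54 to 0.64 for Tlr8, -0.41 to -0.40 for Cd14 and -0.64 to -0.48 for Myd88. S100a9 held only 2 to 23 counts per control rat and 2 to 22 per NASH rat. NASH-CH rat 5 was the highest of all 18 in both markers, and r without that rat was not taken. For 5 dendritic cell markers r was above 0 throughout for Tlr7 (0.36 to 0.70), Tlr8 (0.079 to 0.53), Tlr4 (0.027 to 0.57) and Tlr2 (0.042 to 0.41). Over the same markers r was -0.29 to -0.024 for Tlr3, -0.30 to 0.13 for Cd14 and -0.32 to 0.026 for Myd88. For 5 sinusoidal endothelial markers it was 0.13 to 0.53 for Cd14, 0.060 to 0.55 for Myd88 and -0.61 to -0.027 for Tlr8. The part of these cells in the levels of the members was not tested. Markers of T cells summed to at most 0.849 CPM in the 17 rats other than NASH-CH rat 5, and those of B cells to at most 1.72 CPM over 4 genes in any rat.

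The other genes of the pathway were counted by role. Of 60 genes listed, 57 were in the tables and 56 were tested. In NASH against control 0 of 56 passed by limma-voom, beside 1.58% of all tested genes that were higher and 1.54% that were lower. Of the 56, 7 had an unadjusted p under 0.05 (12.5%), a smaller share than the 2776 of 12904 among all tested genes. DESeq2 called 1 of the 56, beside 1228 of 12904 genes. In NASH-CH against control 7 of 56 rose (12.5%, beside 8.38% of all tested genes) and 0 fell, where 8.60% of all tested genes did. The 7 were spread over the ligand carriers (2 of 3), the adaptors and kinases (3 of 16), the other receptors (1 of 6) and the inhibitors (1 of 8). The receptor folding and trafficking genes (0 of 4), the transcription factors (0 of 8) and the target cytokines and enzymes (0 of 11) held none. The plot of fold changes by role shows where they lie.

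**Figure D5:**
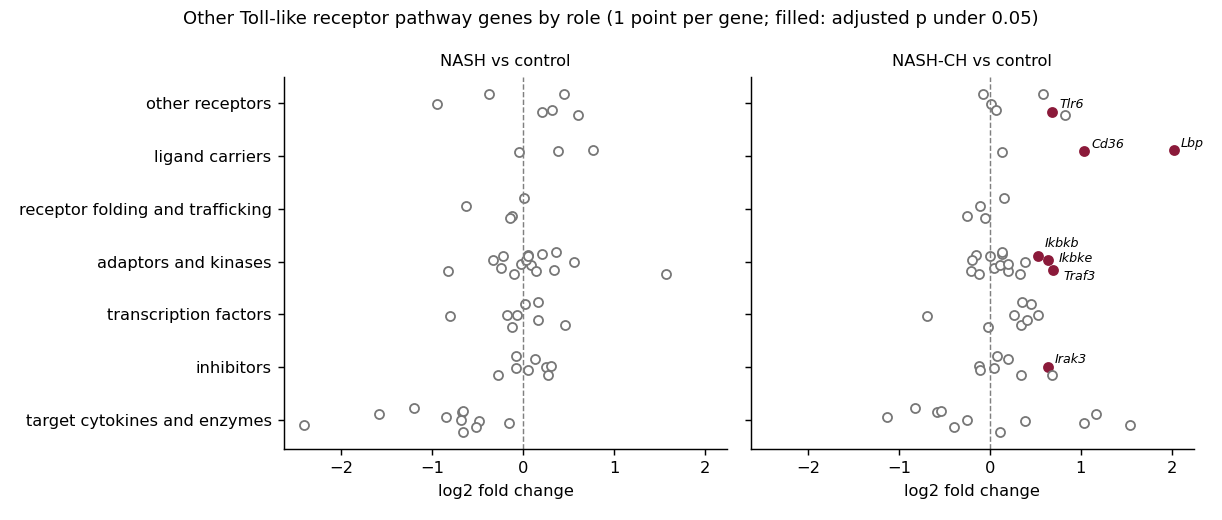
Log2 fold change (horizontal axis) of 56 tested pathway genes, 1 point per gene, grouped by role, in NASH and in NASH-CH against control, with filled and named points for an adjusted p under 0.05. None is filled for NASH, and the 7 filled for NASH-CH all lie above 0, led by Lbp at 2.02.

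Lbp, the LPS-binding protein that hepatocytes secrete and that loads LPS onto Cd14, showed the largest change of the 7. The lowest, median and highest levels were 24.3, 32.5 and 54.4 CPM in control, 43.6, 60.9 and 77.9 CPM in NASH, and 91.7, 138 and 312 CPM in NASH-CH rats. NASH-CH rats did not overlap with either group, and the highest value was that of NASH-CH rat 5. Lbp rose by 2.02 on the log2 scale in NASH-CH (SE 0.26, limma-voom adjusted p = 3.29e-05) and was also higher than in NASH (1.26, SE 0.26, adjusted p = 0.00835). In NASH against control the difference was 0.77 (SE 0.23), which did not pass (adjusted p = 0.0746). Cd36, a scavenger receptor that carries lipids and works with Tlr2, rose by 1.03 in NASH-CH (SE 0.31, adjusted p = 0.0271), from 9.82 ± 3.67 to 21.6 ± 11.4 CPM (SD, n = 6 each). Hmgb1, the third carrier, did not pass in any comparison.

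Among adaptors and kinases, Ikbkb, the kinase that marks the inhibitor of NF-kB for destruction, rose by 0.52 in NASH-CH (SE 0.084, limma-voom adjusted p = 0.000380). Its levels were 14.9 to 20.0 CPM for control, 15.4 to 20.3 CPM for NASH and 22.6 to 26.5 CPM for NASH-CH rats, so that NASH-CH rats did not overlap with the others. It was higher than in NASH by 0.48 (adjusted p = 0.00161). Traf3, an adaptor that leads to interferon genes, rose by 0.69 (SE 0.19, adjusted p = 0.0179), with 3.18 to 4.41 CPM in control and 4.85 to 9.45 CPM in NASH-CH rats. Ikbke, a kinase of interferon regulatory factors, rose by 0.63 in NASH-CH (SE 0.20, adjusted p = 0.0356) and was higher than in NASH by 0.96 (adjusted p = 0.00816). Irak3, which holds the pathway back, rose by 0.63 (SE 0.16, adjusted p = 0.0131), from 5.61 ± 1.40 to 8.72 ± 1.55 CPM (SD, n = 6 each).

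Tlr6, which pairs with Tlr2, was the 1 other receptor that rose in NASH-CH (0.68, SE 0.21, limma-voom adjusted p = 0.0331). Its levels were 1.31 to 3.20 CPM in control and 3.11 to 5.68 CPM in NASH-CH rats, and 5 of 6 NASH-CH rats exceeded the highest control. With each of the 18 rats left out in turn, the log2 fold change of Tlr6 ran from 0.53 to 0.78, and its call was lost without control rat 1, 5 or 6 or NASH-CH rat 1, 2 or 4. That of Ikbke ran from 0.52 to 0.72 and was lost without control rat 3, 5 or 6 or NASH-CH rat 2, 5 or 6. That of Cd36 ran from 0.83 to 1.21 and was lost without control rat 1, 2, 4 or 5 or NASH-CH rat 1. Lbp, Ikbkb, Traf3 and Irak3 passed in all 18 of these fits.

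The target cytokines and enzymes of the pathway spread most among the control rats. Their summed level over 11 genes ran from 11.0 to 392 CPM for control, 19.7 to 120 CPM for NASH and 48.8 to 231 CPM for NASH-CH rats, so that the control rats held both the lowest and the highest sum. In NASH, 11 of 11 log2 fold changes were below 0 (median -0.67) and 0 passed, and in NASH-CH 5 of 11 were above 0 (median -0.25) and 0 passed. Among all tested genes, 51% were above 0 in NASH and 51.5% in NASH-CH. Between the 2 models, 10 of 11 were higher in NASH-CH (median 0.43) and 0 passed, beside 51.3% of all tested genes above 0. The 11 genes were measured in the same rats, so these are not 11 separate observations. Il10, an anti-inflammatory cytokine, had the largest moderated t of this list, with a log2 fold change of -0.85 for NASH (adjusted p = 0.331) and -1.14 for NASH-CH (adjusted p = 0.0872). Of the transcription factors, Irf7, which drives interferon genes after Tlr7 and Tlr9, averaged 8.56 ± 2.37 CPM for control, 5.15 ± 2.20 for NASH and 5.33 ± 1.54 for NASH-CH rats (SD, n = 6 each). Its log2 fold change was -0.80 for NASH (adjusted p = 0.114) and -0.69 for NASH-CH (adjusted p = 0.0716), and neither passed.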

How the data were processed

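Liver RNA of 18 rats was sequenced with 1 library per rat (TruSeq Stranded mRNA per the labels). RNA was isolated with the RNAqueous-Micro kit per the labels and with a miRNeasy kit in the study's methods. The authors trimmed adapters, aligned reads to Rnor_6.0 with STAR and deposited RSEM expected counts per gene, not normalized, in 1 table per rat. Versions were not given in the sources used here. Expected counts were rounded, scaled by TMM (edgeR 4.0.16) and fitted with limma 3.58.1 (voom, moderated t-statistics) in R 4.3.3, with all 18 rats and 1 mean per group, after edgeR's filterByExpr. Single genes below this filter were tested by two-sided exact permutation over 924 regroupings. Intervals and totals do not cover differences between animals other than these.

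The members, the pathway and marker lists and the tests were chosen with earlier results of these data known. Named genes were all members, from each role up to 3 pathway genes with the smallest adjusted p or else the gene with the largest absolute t, markers of highest mean level beside those that passed, and the 3 genes most like each tested member. The remaining genes named for their values were picked after these had been seen.

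Rats with the same number in different groups were checked for pairing: correlations of their deviations ran from -0.119 to 0.171, and 2 of 6, 1 of 6 and 0 of 6 pairs were over 0.1, so the numbers were not taken as pairs. No 2 rats of a group agreed within counting error (smallest chi-square per degree of freedom 28.3). Alternatives were DESeq2 1.42.0, the quasi-likelihood test of edgeR, other scalings and filters, quality weights, thinned NASH-CH counts, small RNA genes left out, 2 groups fitted alone, a replicate block, stricter thresholds and leaving out each rat. No rat was left out, and 0 columns of other samples were found. Promoter windows came from RefSeq (GRCr8), matched by symbol for 9 of 10 members.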

Additional observations from a re-analysis of the deposited data

Results flagged for a closer look

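In 66 checks over 22 genes and 3 groups, the gap between an end rat and its nearest neighbor was taken as a share of the group's range, both in log2 CPM. This share was above Dixon's 95% critical value in 5, and chance alone gives about 1 in 20. Levels below are in CPM. NASH rat 4 was low in Tlr3 (7.17 CPM, gap share 0.751). NASH-CH rat 5 was high in Tlr10 (5.78 CPM, 0.696) and low in the kinase Irak1 (45.9 CPM, 0.686). Control rat 1 was low in Tlr6 (1.31 CPM, 0.734) and in Irf7 (4.36 CPM, 0.630).

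Between the 2 models, Lbp differed by 1.26 on the log2 scale (limma-voom adjusted p = 0.00835), Ikbkb by 0.48 (adjusted p = 0.00161) and Ikbke by 0.96 (adjusted p = 0.00816), each higher in NASH-CH than in NASH rats, in 6 of 6 NASH-CH rats against the NASH mean.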

How the results depend on the processing

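Of 713 values of single members under the alternatives, where no member had passed, 678 kept their direction and their side of the threshold, 8 passed it (all Tlr8, 4 of them by an exact p without adjustment) and 27 changed sign. The number of members called in NASH-CH against control was 1 (Tlr8) in place of 0 with DESeq2, with library size only and with no filter, and 0 to 1 on leaving out a rat. Over all genes, DESeq2 called 2841 of 12904, library size only 3270 of 12904 and no filter 5495 of 20887, in place of 2192 of 12904. In the other 2 comparisons the number of members called was 0 under every alternative tried. Pathway genes called in NASH were 1 with DESeq2, 4 with quality weights, 1 with the 2 groups alone and 0 to 1 without a rat, in place of 0. Over all genes, DESeq2 called 1228, quality weights 1509 and the 2 groups alone 644 of 12387, in place of 403. In NASH-CH, in place of 7, the pathway genes called were 16 with library size only, 4 with the 2 groups alone, 2 at a threshold of 0.01, 2 at a log2 fold change of at least 1 and 5 to 9 without a rat. Over all genes, library size only called 3270 and the 2 groups alone 1408 of 12941, in place of 2192. Against NASH, in place of 3, the pathway genes called were 6 with DESeq2, 5 with no filter, 1 at a log2 fold change of at least 1 and 3 to 4 without a rat. Over all genes, DESeq2 called 949 and no filter 2649 of 20887, in place of 542. With library size only, all genes had a median log2 fold change of 0.23 (NASH) and 0.27 (NASH-CH), so members are to be read relative to these shifts. The cause of these changes was not tested.

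Signs turned for values near 0. Tlr3 in NASH was 0.11 with library size only and ran from -0.18 to 0.026 without a rat. Cd14 in NASH was 0.024 with edgeR, 0.022 with DESeq2 and 0.21 with library size only, and ran from -0.097 to 0.097 without a rat. Cd14 without a rat ran from -0.10 to 0.25 in NASH-CH against control and from -0.095 to 0.26 against NASH. Myd88 in NASH was 0.19 with library size only and 0.011 with quality weights, and ran from -0.11 to 0.024 without a rat. Tlr9 in NASH-CH against NASH was -0.059 with no filter and -0.042 with a prior count of 0.5, beside 0.0070.

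With the replicate number as a block, 0 members passed in any comparison, and 0, 7 and 3 pathway genes passed in NASH, in NASH-CH and between them. Over all genes the block gave 444, 2095 and 540 calls in place of 403, 2192 and 542, and 2 of 6 rats correlated best with their own number in each pair of groups. Tlr5 and Tlr9, with as few as 2 and 0 counts in a rat, were limited by depth.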
